A study of Mus musculus with 8 samples.

Results

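The 9 genes Igf2bp1, Igf2bp2, Igf2bp3, Lin28a, Lin28b, Fmr1, Elavl1, Pum2 and Trim71 encode RNA-binding proteins that stabilise or repress messenger RNAs in stem cells. They were taken by name from a table of 17597 genes and 1097 transposable element subfamilies, and all 9 had a value. The table came from 8 total RNA libraries of mouse embryonic stem (mES) cells, in 2 groups of 4 libraries. Both groups carried METTL3 fused to the FKBP12 F36V degron, which lets the small molecule dTAG-13 trigger destruction of METTL3, the methyltransferase that places N6-methyladenosine (m6A) on messenger RNA. One group received dTAG-13 for 26 h and the other did not, with clones C3 and H5 and 2 replicates of each clone in both groups. The cells were of Cast x 129S background and carried a TetOn promoter in place of the Xist promoter, which was left uninduced because no library received doxycycline. The labels place that promoter on the 129S allele, whereas the study's text describes the parental line with the promoter on the Cast X chromosome. Cells grew on inactivated mouse fibroblasts, so each group is a pair of edited clones with some feeder RNA possible.

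The values used were the authors' mean normalised counts over all 8 libraries. They do not separate treated from untreated cells, and they carry no spread, so the levels below describe the pooled libraries and no difference between the groups was tested. The difference between dTAG-13-treated and untreated cells was not analysed here for these genes.

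These proteins bind RNA and change how long messenger RNAs last or how well they are translated. IGF2BP proteins coat and protect their targets, and have been described as readers of m6A. LIN28 proteins bind the precursors of let-7 microRNAs and stop their maturation, while let-7 in turn represses the LIN28 genes, a double-negative loop that keeps let-7 low in pluripotent cells. TRIM71 (LIN-41) is a repressor of messenger RNAs and a classic let-7 target, ELAVL1 (HuR) binds AU- and U-rich elements and protects RNA, PUM2 binds the Pumilio element and promotes decay, and FMRP, the product of Fmr1, is best known as a translational repressor.

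The let-7 family is the element that ties many of the members together, so its sequences are shown first. The RefSeq table (GRCm38.p6) held 11 records of let-7 5p arms with 9 distinct sequences, and all 11 had the seed GAGGUAG at bases 2 to 8. A set that differs outside the seed is given here, 5′ to 3′, with the seed in capitals.
let-7a-5p, chr13:48538239-48538260, minus strand: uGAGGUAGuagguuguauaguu
let-7d-5p, chr13:48536078-48536099, minus strand: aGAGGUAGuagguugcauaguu
let-7e-5p, chr17:17830366-17830387, plus strand: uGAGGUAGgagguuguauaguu
let-7g-5p, chr9:106178846-106178867, plus strand: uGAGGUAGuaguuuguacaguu
miR-98-5p, chrX:151913229-151913250, plus strand: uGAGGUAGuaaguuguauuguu

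LIN28 proteins recognise a GGAG element in the loop of the let-7 precursor. Of 12 let-7 hairpins in the RefSeq table, 11 had both mature arms listed, and the stretch between the arms held GGAG in 8 of these 11. Some of the shorter loops are shown to compare one that lacks the element with those that have it (capitals).
let-7a-1 loop, chr13:48538210-48538238, minus strand: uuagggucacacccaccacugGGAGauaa
let-7c-1 loop, chr16:77599694-77599716, plus strand: uagaguuacacccugGGAGuuaa
let-7f-2 loop, chrX:151912375-151912402, plus strand: uuagggucauaccccaucuuGGAGauaa
let-7c-2 loop, chr15:85706638-85706663, plus strand: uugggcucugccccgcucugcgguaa

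The complement of the seed, CTACCTC, was searched on the sense strand of the 3′ UTR of 1 representative transcript for each of 16100 protein-coding genes. It occurred in 6 of the 9 members and in 9.06% of all genes. Igf2bp1, Lin28b and Trim71 each held 4 matches, Lin28a held 2, Igf2bp2 and Igf2bp3 held 1 each, and none was found in Fmr1, Elavl1 or Pum2. At least 4 matches were present in 11 genes, or 0.0683% of all genes, and 3 of these 11 were members. The others with at least 4 were Nr6a1 with 8, Nudt12 with 7, Trim6 with 6, and Hic2, D10Wsu102e, Hmga2, Zbtb37 and Ptafr with 4 each. The annotated 3′ UTRs of D10Wsu102e (122583 bases) and Zbtb37 (16999 bases) were far longer than those of the members, so their 4 matches were sparse. Several members are textbook let-7 targets, so this count describes the annotation and is not independent evidence about the set.

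The 14 matches of the LIN28 genes, Trim71 and Igf2bp1 carry most of that count, and they are printed with the match in capitals, from 15 bases before it to 1 base after it. All lie in 3′ UTR exons on the minus strand of GRCm38, and each sequence is that of the transcript, 5′ to 3′.
Igf2bp1 site 1, chr11:95961778-95961800: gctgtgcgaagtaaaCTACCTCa
Igf2bp1 site 2, chr11:95959357-95959379: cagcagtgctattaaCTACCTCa
Igf2bp1 site 3, chr11:95958763-95958785: gtataaatggatgaaCTACCTCa
Igf2bp1 site 4, chr11:95958140-95958162: acttttggttttaatCTACCTCt
Lin28a site 1, chr4:134005189-134005211: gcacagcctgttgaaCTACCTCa
Lin28a site 2, chr4:134004551-134004573: gagatcgccacaaacCTACCTCa
Lin28b site 1, chr10:45381022-45381044: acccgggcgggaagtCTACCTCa
Lin28b site 2, chr10:45378648-45378670: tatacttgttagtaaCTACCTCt
Lin28b site 3, chr10:45378476-45378498: gtttacagcacatggCTACCTCc
Lin28b site 4, chr10:45377060-45377082: aaatgatggcaccgaCTACCTCt
Trim71 site 1, chr9:114512472-114512494: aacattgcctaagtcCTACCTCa
Trim71 site 2, chr9:114512376-114512398: agtgataatttctatCTACCTCa
Trim71 site 3, chr9:114509047-114509069: tttagtatggattttCTACCTCa
Trim71 site 4, chr9:114509021-114509043: ttggcaaaaagttgtCTACCTCa

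An A after the match, opposite the first base of the microRNA, is a feature known to make microRNA sites more effective in general. It followed 12 of the 16 matches in all members. It followed all 4 in Trim71, 3 of 4 in Igf2bp1, both in Lin28a and only 1 of 4 in Lin28b. In Trim71 the matches fell in pairs, at bases 166 and 262 and at bases 3591 and 3617 after the stop codon. In Lin28b the match followed by A lay 36 bases after the stop codon and the others lay at 2410, 2582 and 3998. The single match in Igf2bp3 lay at base 548 and that in Igf2bp2 at base 1313, each followed by A.

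**Figure D1:**
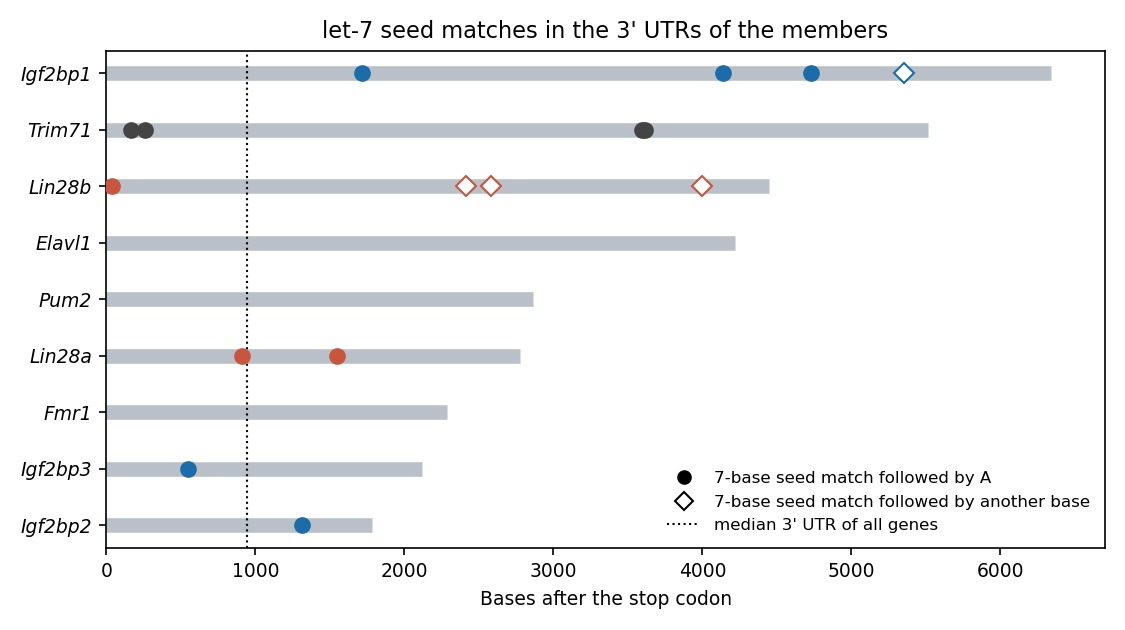
Each grey bar is the 3′ UTR of a member, in bases after the stop codon, and each marker is a let-7 seed match, filled where the next base is A. Igf2bp1, Trim71 and Lin28b held 4 matches each, Elavl1, Pum2 and Fmr1 held none, and all 9 bars run past the dotted line at the median 3′ UTR of all genes.

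The members' 3′ UTRs were long, and a long UTR holds more matches of any kind. The median 3′ UTR was 2861 bases over the members and 946 bases over the 16100 genes, and all 9 members lay above the latter. The longest were those of Igf2bp1 (6337 bases), Trim71 (5512 bases) and Lin28b (4445 bases). Each gene was therefore set beside the genes whose 3′ UTR was within 1.25-fold of its own length, the member itself left out. Among 422 genes of the length of Igf2bp1, 1 (0.237%) held at least as many let-7 matches, and that gene was Trim71. The same count was 3 of 1021 genes (0.294%) for Lin28b (Nr6a1, Trim71 and Hic2), 3 of 603 (0.498%) for Trim71 (Nr6a1, Igf2bp1 and Lin28b) and 44 of 1943 (2.26%) for Lin28a. For Igf2bp2 and Igf2bp3 the single match was shared by 12.2% and 13.3% of genes of like length. Elavl1 had no match in 4218 bases, where 24.6% of genes of like length had one, and the same share was 15.8% for Pum2 and 14.0% for Fmr1.

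Other elements were closer to the level of genes of like length. The m6A consensus core GGACT occurred in the 3′ UTR of all 9 members and of 58.7% of genes, and Igf2bp1 with 10 matches and Trim71 with 9 were reached by 7.35% and 6.97% of genes of like length. The other 7 members held between 1 and 4 matches, and at least 26.6% of genes of like length held as many. The Pumilio element TGTANATA, where N is any base, was found in 5 of 9 members and 23.7% of genes, with 2 matches each in Pum2 itself, Fmr1 and Lin28b. Among genes of like length, 31.6% to 71.6% held it, and its rate was 0.247 per kb of 3′ UTR in the members and 0.241 in all genes. The AU-rich pentamer ATTTA was found in all 9 members and 65.0% of genes. Elavl1 held 17 of these pentamers, and 4.23% of the 1136 genes of like length held as many. The same share lay between 12.99% and 62.9% for the other 8 members. These matches are letters in a reference transcript and do not show binding or methylation.

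The members also differed in exon structure, which bears on m6A because the mark is known to be deposited mainly in long exons and kept away from splice junctions. Trim71 had 4 exons over 9332 bases (0.429 exons per kb), Lin28b 5 over 5402 (0.926), Elavl1 6 over 5743 (1.04) and Lin28a 4 over 3505 (1.14). The median gene had 3.35 exons per kb. Igf2bp2, Igf2bp3, Fmr1 and Pum2 lay between 3.37 and 4.10 exons per kb, so only 5 of the 9 members were below the median gene. Few exons per kb did not mean long internal exons. The longest internal exon had a median of 226 bases over the members and 219 over 14681 genes, with 5 of 9 members above the latter. This measure leaves out the first and last exons, whose lengths were not compared. In Trim71 the longest internal exon was 168 bases, so most of its 9332 bases lay in the first and last exons. The same was true of Lin28a (longest internal exon 197 bases), Lin28b (185) and Elavl1 (226).

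The coding sequences of the family members were distinct enough to separate reads. Igf2bp1 shared 70.5% of aligned coding bases with Igf2bp2 and 69.6% with Igf2bp3, with no identical run over 20 bases. Lin28a and Lin28b shared 73.2% of aligned coding bases, and their longest identical run was also 20 bases. A read of 81 bases from the coding part of one could therefore not match another without mismatches. Windows of 81 bases shared with transcripts of other genes made up at most 1.78% of the representative transcript in 8 members. The exception was Igf2bp3, in which 34.0% of windows were shared with Malsu1, a gene on the opposite strand.

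The labelled cell type was checked against its markers. All 9 markers of embryonic stem cells lay above the median gene, and 8 of them lay in the top 10% of genes by level. Of the markers of fibroblast feeders, 11 of 15 lay below the median gene, with a summed level of 0.0415% of the gene total, and none lay in the top 10%. None of the 15 was at 0. The highest per kb were Fn1 with a mean count of 4941, Tagln with 345, S100a4 with 49.6 and Acta2 with 103, all above the median gene. The fibroblast collagen gene Col1a1 had a mean count of 19.8, and Postn, the lowest, had 0.768. In bulk RNA, fewer cells of a type and less RNA per cell cannot be told apart, and the part of feeder RNA in the members' levels was not tested.

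Levels of different genes are compared here as the mean count per kb of merged exons, over the 17355 genes with a length. The median gene had 39.9 counts per kb and the 90th percentile was 506. All 9 members lay above the median gene, and Lin28a, Igf2bp1 and Pum2 lay above the 90th percentile, a level that 10% of all genes reach by construction. Pum2 fell below that level with the longest transcript (89.1% of genes below), the coding exons (87.9%), the representative transcript (87.6%) and among genes whose mean count reached 10 (88.0%). In the first 3 of these Fmr1 lay above it instead, with 91.4%, 90.8% and 90.7% of genes below. Among the genes whose mean count reached 10, Lin28b lay below the median gene, with 40.7% of genes below it. Igf2bp3 stayed just above that median, with 53.1% of genes below. Together the members had a summed mean count of 30924, or 0.212% of the total over genes. Igf2bp1 gave 27.7% of that sum and Lin28b gave 1.55%.

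**Figure D2:**
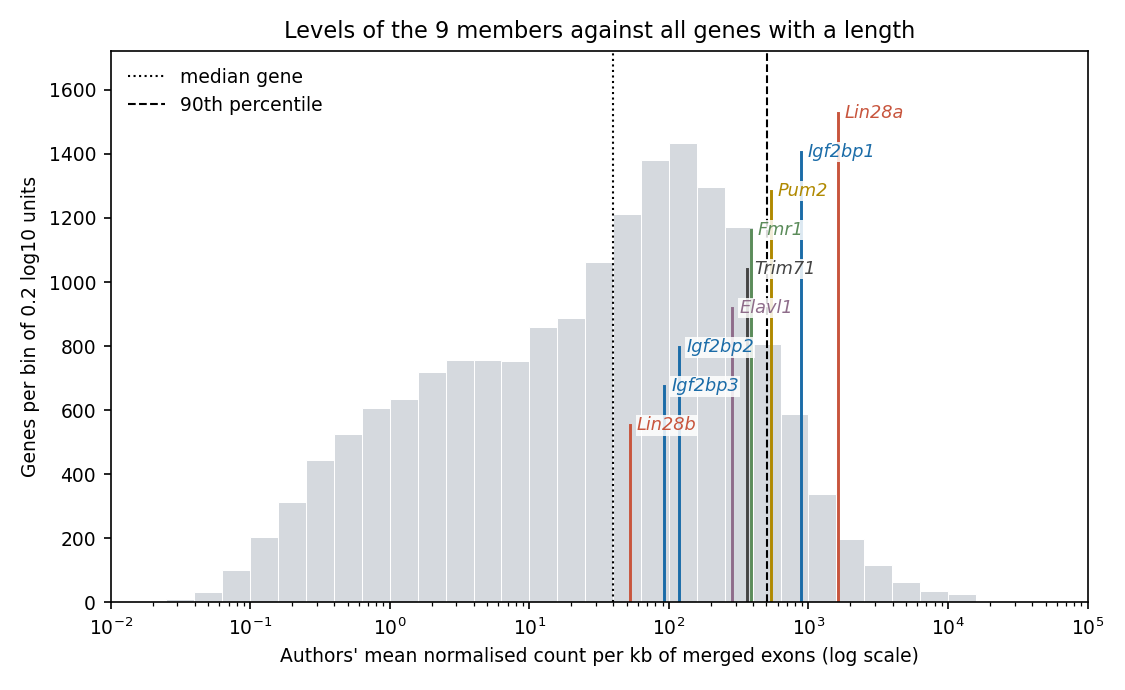
Grey bars count genes by their mean normalised count per kb of merged exons on a log axis, and coloured lines mark the members (line heights serve the labels only). Lin28a at 1622, Igf2bp1 at 885 and Pum2 at 539 counts per kb lay right of the dashed 90th percentile at 506, and Lin28b at 52.8 lay closest to the dotted median at 39.9.

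Among the IGF2BP genes, 1 member carried most of the RNA. Igf2bp1 (chr11:95957163-96005940, minus strand) had a mean count of 8569 and 885 counts per kb, above 94.7% of genes. Igf2bp2 (chr16:22059009-22163299, minus strand) had a mean count of 880 and 119 counts per kb, above 68.2% of genes. Igf2bp3 (chr6:49085223-49214957, minus strand) had a mean count of 757 and 92.8 counts per kb, above 63.7% of genes. Igf2bp1 was thus 7.44-fold above Igf2bp2 and 9.54-fold above Igf2bp3 per kb. These ratios ran from 4.53 to 10.2 and from 5.87 to 11.7 over the 5 length measures tried. Igf2bp2 and Igf2bp3 were near each other, with a ratio of 1.28 that ranged from 1.02 to 1.30, and with no spread between libraries their order is not resolved. The overlap with Malsu1, whose mean count was 361, covered 18.7% of the merged exons of Igf2bp3, and whether the counting used strand is not certain from the sources used here.

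The LIN28 paralogs were further apart. Lin28a (chr4:134003330-134018841, minus strand) had a mean count of 6480 and 1622 counts per kb, the highest level per kb of the 9, above 97.5% of genes. Lin28b (chr10:45376620-45486395, minus strand) had a mean count of 478 and 52.8 counts per kb, the lowest of the 9, above 54.1% of genes. The ratio was 30.7 per kb. It was between 18.3 and 20.9 when only the longest or the coding transcripts set the length, 81.7 with the median transcript length and 13.5 with no length, so Lin28a was higher under every measure while the size of the difference depends on the length. In both genes the 3′ UTR made up most of the representative transcript, 79.2% in Lin28a and 82.3% in Lin28b.

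Trim71 and Pum2, both repressors of messenger RNA, were at medium to high levels. Trim71 (chr9:114507133-114564369, minus strand) had a mean count of 3411 and 365 counts per kb, above 86.3% of genes, from a single annotated transcript of 9.33 kb. Pum2 (chr12:8674134-8752581, plus strand) had a mean count of 3916 and 539 counts per kb, above 90.7% of genes.

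Fmr1 (chrX:68678541-68717963, plus strand) had a mean count of 3477 and 388 counts per kb, above 87.1% of genes. Its paralog Fxr1 was higher, at 897 counts per kb, or 2.31-fold Fmr1 (1.69 to 2.89 over the length measures and no length). Fxr2 had 566 counts per kb, and the ratio of Fmr1 to Fxr2 was 0.685 per kb of merged exons but 1.09 with the longest transcript, so these values do not fix their order. Fmr1 was also the only member on the X chromosome.

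Elavl1 (chr8:4285382-4325413, minus strand) had a mean count of 2956 and 285 counts per kb, above 82.7% of genes. It was the main ELAVL gene of these cells, 4.26-fold above Elavl2 (2.34 to 5.31 over the length measures and no length). The neuronal paralogs Elavl4 and Elavl3 had 9.70 and 7.51 counts per kb, both under the median gene.

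**Figure D3:**
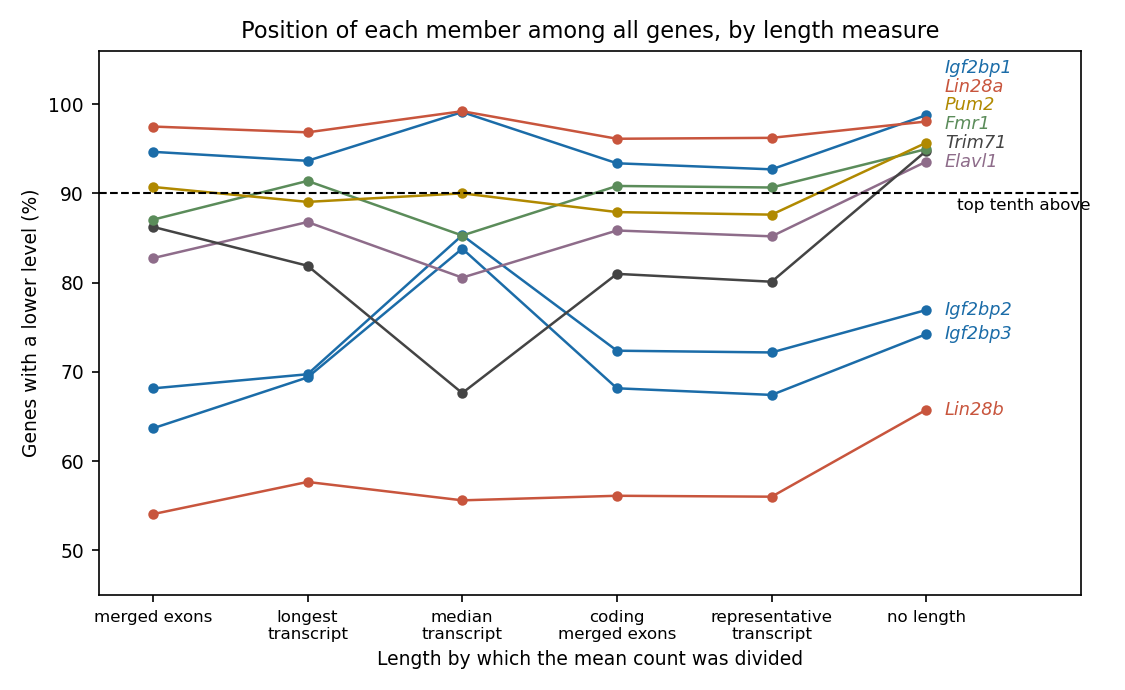
Each line follows a member's position, as the percent of genes with a lower level, over the 5 length measures and the mean count with no length. Lin28a and Igf2bp1 stayed above the dashed line at 90% throughout, Lin28b was lowest throughout, and Trim71, Igf2bp2 and Igf2bp3 moved most, chiefly with the median transcript length.

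In the order per kb of merged exons, Lin28a was followed by Igf2bp1, Pum2, Fmr1, Trim71, Elavl1, Igf2bp2, Igf2bp3 and Lin28b. Lin28b was last under every length measure and with no length. Lin28a was first and Igf2bp1 second under all 5 length measures, but with no length Igf2bp1 came first, and the ratio of Lin28a to Igf2bp1 was 1.83 per kb of merged exons and 0.756 with no length. Pum2 and Fmr1 changed places with the longest, the representative and the coding transcripts, as did Trim71 and Elavl1, so neither neighbour pair has a settled order. With the median transcript length 5 members stood in another place. No spread between libraries was at hand to say which neighbours differ beyond it.

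The other genes of the same pathways lay mostly above the median of all genes with a length. Of the 11 genes of the LIN28 and let-7 pathway, 10 were above that median. In the top 10% there was 1, Lin28a, which is near the 10% share of all genes. Among genes whose mean count reached 10, Lin28b lay below the median gene (40.7% of genes below). Zcchc6, which was lower per kb than Lin28b, lay below it as well. The microRNA processing genes Drosha (484 counts per kb), Xpo5 (357), Dgcr8 (313), Tarbp2 (246) and Dicer1 (218) came next, and Ago2, which carries the mature microRNA, had 97.3. The terminal uridylyl transferases that LIN28A recruits to the let-7 precursor, Zcchc11 (Tut4) and Zcchc6 (Tut7), had 117 and 50.9 counts per kb. Dis3l2, the nuclease that degrades the uridylated precursor, had 34.7 counts per kb and was the 1 gene of the list below the median of all genes. Mature let-7 had no value here. Mirlet7bhg, the host transcript of the let-7 genes on chromosome 15, had a mean count of 2.94, and host transcripts of the other let-7 genes were not looked up. Of the 10 textbook let-7 targets, 4 of them members, all lay above the median gene, led by Lin28a, Mycn (970 counts per kb), Igf2bp1 and Ccnd1 (723), with Hmga2 at 89.6.

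Genes for proteins that act with the members spanned a wide range of levels. Of 7 IGF2BP partner genes, 6 were in the top 10%, among them Ybx1 (6411 counts per kb), Pabpc1 (1664), Hnrnpu (1328) and Matr3 (870), and Elavl1 was the seventh. Of 9 genes of the FMRP list, 5 were in the top 10%, led by the granule proteins Caprin1 (1832) and G3bp1 (1632), then Nufip2 (1158) and Fxr1, while Cyfip2 was the lowest at 49.0. In the Pumilio list, Eef1a1 stood far above the rest at 32934 counts per kb, Pum2 followed with 539, Ago2 had 97.3, and the germline partners Nanos3 and Nanos1 were at 88.0 and 41.2. Nanos2 was not found with a length under that symbol.

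Of 10 genes for AU-rich element binding proteins, the highest were Hnrnpab (3238 counts per kb), Ptbp1 (1838), Khsrp (425) and Hnrnpd (333), ahead of Elavl1. Among the decay-promoting ZFP36 proteins, Zfp36l1 had 277, Zfp36l2 had 129 and Zfp36 had 19.0 counts per kb. Of the 8 genes of the m6A writer and its YTH readers, 3 were in the top 10% and none was under the median gene, with Ythdf2 at 911, Ythdf1 at 819, Wtap at 772 and Ythdf3 at 480 counts per kb. Of 12 relatives of the members, 11 were found with a length under the listed symbol, and 4 of these were under the median gene. Pum3 was not found so, and other symbols for it were not searched.

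**Figure D4:**
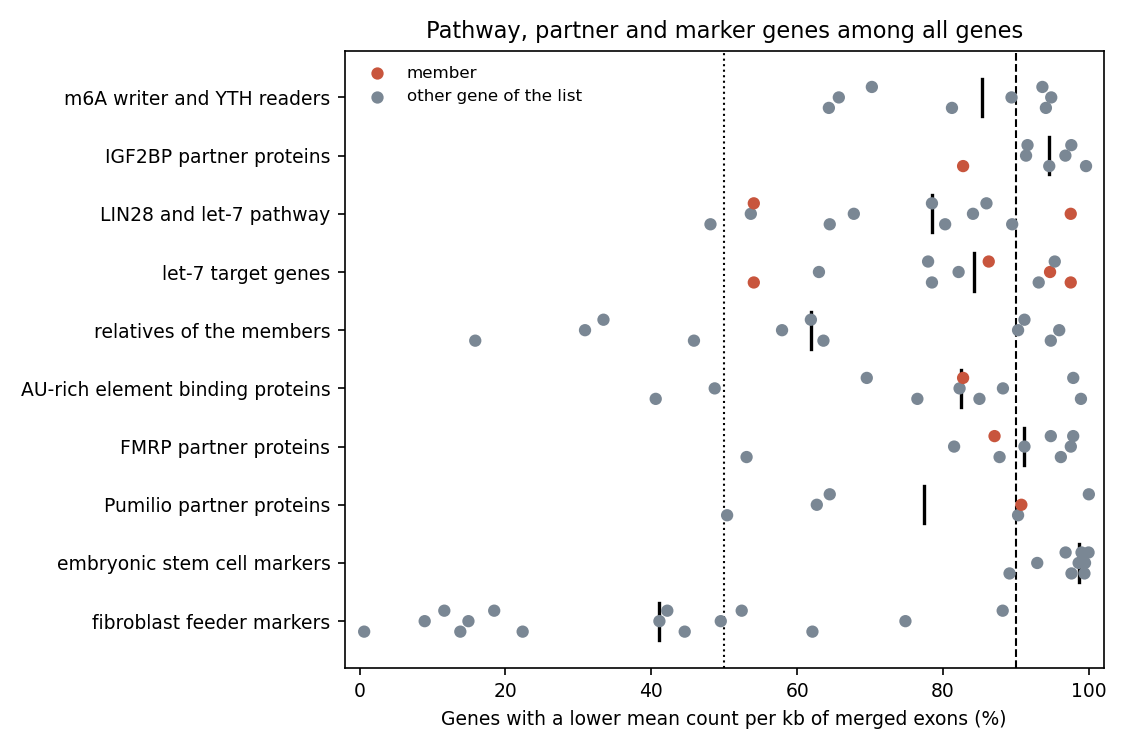
Each point is a gene of a named list, placed by the percent of all genes with a lower mean count per kb, with members in red and a black bar at the list's median. Stem cell markers had a median of 98.6% and IGF2BP partners 94.6%, while fibroblast feeder markers had a median of 41.1%, under the dotted line at 50%.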

How the data were processed

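RNA of 8 libraries, 4 treated with dTAG-13 for 26 h and 4 untreated, was sequenced as paired reads of 81 bases from a stranded, rRNA-depleted library. The label of the molecule and the study's methods give total RNA, whereas the extraction protocol in the labels is one for chromatin RNA. Reads of rRNA were removed with bowtie2, the rest were aligned with STAR to an N-masked mm10 genome keeping unique alignments, PCR duplicates were removed with Picard MarkDuplicates, and genes and transposable elements were counted with TEtranscripts.

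The deposited table holds 1 signal column, the authors' mean of normalised counts over all libraries. Its 5 other columns hold the authors' own comparison (a log2 fold change with its standard error, test statistic, p-value and adjusted p-value) and were not used. The table holds no value per library, so depth per sample, replicate spread and any test between groups were not computed. The sum of the mean counts over genes was 14573411. The labels name 2 clones. The study's reporting summary describes RNA-seq designs in general as several independent clones or independent repeats of 1 clone, with the wells of a replicate split from 1 batch of cells between conditions.

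Symbols were looked up in the GENCODE vM21 annotation (GRCm38, the build of mm10): 16660 directly, 726 through an older symbol, 40 with more than 1 record and 171 not at all. Of the matched symbols, 31 shared a record with another symbol and all of these were left out, leaving 17355 genes (98.6%) with a length. The mean count was divided by the kb of merged exons, with no pseudocount. The alternatives were the longest transcript, the median transcript length, no length, genes whose mean count reached 10, protein-coding genes, and the top 25% in place of the top 10%. The merged exons of protein-coding transcripts and the representative transcript were added after seeing the data. Motifs were counted in 1 representative transcript per gene, in the 3′ UTR, on the sense strand only. Coding sequences were aligned with Biopython 1.88. Scripts ran in Python 3.11.15 with pandas 2.3.3 and were tested on simulated sequences. let-7 sequences are from RefSeq (GRCm38.p6).

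All 9 members are named. Of each list every measured gene was counted and the 4 highest per kb named, with the paralogs of the members and the LIN28 and let-7 pathway genes. Genes named outside that rule (the feeder markers Col1a1 and Postn, Hmga2, Zfp36 and its relatives, Cyfip2, Malsu1, Mirlet7bhg, Ago2 and the Nanos genes of the Pumilio list, and the genes with at least 4 let-7 matches) were chosen after their values were seen. Some genes that the rule names are not reported here. The members and lists were chosen with earlier results of these data known.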

Additional observations from a re-analysis of the deposited data

How the results depend on the processing

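The members in the top 10% of genes numbered 3 per kb of merged exons. They numbered 2 among genes whose mean count reached 10, 6 with no length, and 6 were in the top 25% per kb of merged exons. The median member lay above 86.3% of genes per kb and above 94.8% with no length. Over the 9 members, the share of genes below a member moved by over 5 percentage points for 6 members with no length, for 4 among genes whose mean count reached 10, for 3 with the median transcript length (at most 20.1 points), for 1 each with the longest, the representative and the coding transcripts, and for none among protein-coding genes. Those shifts come from the lengths and genes used, since the mean counts are the same. No paired analysis was possible because the table holds no value per library. Depth per library is unknown here, and no replicate could be left out.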
